A study of Homo sapiens with 3 samples.

Results

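The regions described here are 1099 BRG1 peaks that lie around the centromeres of 13 human chromosomes whose centromere is not at a chromosome end. They were taken from a list of 6343 peaks shared by a pair of BRG1 libraries (6293 on chromosomes 1 to 22 and X), and a shared peak was included when its midpoint fell inside 1 of 13 windows on build GRCh38. The windows are chr1:121000000-144500000, chr2:89000000-96000000, chr4:48500000-52500000, chr5:45000000-51000000, chr7:57000000-63000000, chr9:38000000-68000000, chr10:38000000-43000000, chr12:34000000-38500000, chr16:33000000-47000000, chr17:21000000-27500000, chr18:15000000-21000000, chr19:24000000-28500000 and chr20:25000000-32000000. The rule uses position alone, but the windows themselves were chosen with earlier results of these data known.

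BRG1, the ATPase encoded by SMARCA4, was mapped by chromatin immunoprecipitation and sequencing (ChIP-seq) in wild-type 12Z cells, an established epithelial line from human endometriosis. The series holds 2 BRG1 libraries, called replicate 1 and replicate 2, and 1 input library of chromatin taken without antibody, all from untreated cells of that line. Cells were fixed with formaldehyde, and the chromatin was cut with micrococcal nuclease and sonicated briefly. The labels do not say whether the replicates were separate cultures, so their agreement may be technical, and no second condition exists with which to compare them.

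Pericentromeric DNA consists largely of satellite arrays and of recently duplicated segments, in which near-identical copies lie at several places of the genome. On chromosomes 1, 9 and 16 it includes long blocks of constitutive heterochromatin that the reference assembly represents mostly as gaps. Short reads from such DNA often match several places equally well, and an assembly that holds fewer copies than the cells do will stack reads at the copies it has. BRG1 is the motor of the SWI/SNF complex, which slides and evicts nucleosomes, and it is best known at promoters and enhancers of genes in accessible chromatin. No source used here states how reads that matched several places were treated, and the part this has in the values below was not tested.

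A pair of microRNA genes on chromosome 9 shows what duplicated DNA in these windows looks like. The hairpin of MIR4477A (chr9:41233755-41233835, plus strand, RefSeq, GRCh38.p14) lay inside a pericentromeric peak at chr9:41230297-41235151. The hairpin of MIR4477B (chr9:63819574-63819654, plus strand) lay inside another, at chr9:63818520-63820090, on the far side of the centromere. The hairpins are printed 5′ to 3′ because each is the exact reverse complement of the other over all 81 bases, with 0 mismatches, so that a read from within one also matches its partner. Capitals in the second mark the mature hsa-miR-4477b, and capitals in the third mark its seed (bases 2 to 8).
MIR4477A hairpin: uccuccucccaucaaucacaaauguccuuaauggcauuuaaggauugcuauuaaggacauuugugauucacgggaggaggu
MIR4477B hairpin: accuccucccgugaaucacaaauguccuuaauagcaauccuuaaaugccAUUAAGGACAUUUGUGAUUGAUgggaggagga
hsa-miR-4477b: aUUAAGGAcauuugugauugau
Fold enrichment, the ratio of ChIP signal to local background, was 2.999 in replicate 1 and 2.748 in replicate 2 at the MIR4477A peak. At the MIR4477B peak it was 2.80 and 3.26. The folds of both peaks were low for a shared peak, and each peak lay in a cluster of 5. Both genes were chosen for printing after their values were seen.

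Few of the pericentromeric peaks lay at a gene promoter. Of the 1099, 4 (0.364%) overlapped a RefSeq promoter of 300 bases (250 before to 50 after a gene's start), against 3.51% of all shared peaks and 5.68% of those in the chromosome arms. Counted over promoters, 4 of the 355 in the windows (1.13%) held a shared peak, near the 0.787% of all 34961 on chromosomes 1 to 22 and X. A contrasting pair is printed, with the bases inside the peak in capitals. The first belongs to MAP2K3, a kinase of the p38 stress pathway (chr17:21287786-21288085, plus strand, GRCh38.p14), and shared none of its 20-base words with any other promoter in the table. The second belongs to FAM27E4 (chr9:61856455-61856754, plus strand), a member of a duplicated gene family, and 33.8% of its 20-base words recurred in 9 other promoters, most often in that of FAM27B.
MAP2K3 promoter: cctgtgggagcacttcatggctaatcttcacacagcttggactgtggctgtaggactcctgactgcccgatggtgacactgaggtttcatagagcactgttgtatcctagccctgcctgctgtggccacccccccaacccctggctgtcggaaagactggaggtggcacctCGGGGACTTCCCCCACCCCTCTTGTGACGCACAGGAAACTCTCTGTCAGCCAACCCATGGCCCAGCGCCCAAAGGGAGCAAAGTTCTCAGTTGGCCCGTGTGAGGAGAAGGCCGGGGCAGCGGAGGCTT
FAM27E4 promoter: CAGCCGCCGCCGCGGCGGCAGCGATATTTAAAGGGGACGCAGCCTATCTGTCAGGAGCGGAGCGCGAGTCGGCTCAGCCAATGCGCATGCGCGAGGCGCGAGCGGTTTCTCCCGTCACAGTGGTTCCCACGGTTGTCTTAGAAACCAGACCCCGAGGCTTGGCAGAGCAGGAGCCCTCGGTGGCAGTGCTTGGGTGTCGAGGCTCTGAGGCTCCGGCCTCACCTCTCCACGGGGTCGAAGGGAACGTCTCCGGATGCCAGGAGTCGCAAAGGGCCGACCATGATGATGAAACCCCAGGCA
The MAP2K3 peak (chr17:21287957-21288451) covered the last 129 bases of the first sequence and had a fold enrichment of 4.05 in replicate 1 and 3.78 in replicate 2. The FAM27E4 peak (chr9:61856269-61857093) covered all 300 bases of the second and had folds of 2.32 and 2.38. The other 2 promoters also shared no 20-base word with another one. Their peaks had folds of 3.48 and 4.35 (LOC124905589) and of 3.32 and 3.30 (LOC107985416), and 4 peaks are too few to compare kinds of promoter. The FAM27E4 promoter held 29 CpG dinucleotides and the MAP2K3 promoter 8, against a median of 14 over the table. Neither held TGANTCA, the AP-1 motif (its own reverse complement, so that 1 search covers both strands), which occurred in 7.71% of all promoters in the table. Of the other 2, the LOC107985416 promoter held 1 match and the LOC124905589 promoter 0. FAM27E4, LOC124905589 and LOC107985416 were chosen after their values were seen.

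Shared BRG1 peaks were dense in the windows. The 1099 peaks filled 124 Mb at 8.86 peaks per Mb, against 1.36 per Mb in the chromosome arms, which here means all shared peaks outside both the windows and the acrocentric regions named next (3818 peaks). The windows made up 4.09% of the length of chromosomes 1 to 22 and X and held 17.5% of their shared peaks. The nearest comparison is the DNA of the acrocentric chromosomes 13, 14, 15, 21 and 22 below 20 Mb, which held 1376 shared peaks at 13.8 per Mb. In the separate libraries, 2821 of the 17399 peaks of replicate 1 (16.2%) and 2354 of the 10157 peaks of replicate 2 (23.2%) lay in the windows.

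The windows differed widely among themselves. Density was highest on chromosome 19 (173 peaks, 38.4 per Mb), followed by chromosome 5 (205 peaks, 34.2 per Mb), chromosome 10 (121, 24.2 per Mb) and chromosome 20 (158, 22.6 per Mb). Chromosomes 17, 4 and 1 came next, with 67, 40 and 209 peaks at 10.3, 10 and 8.89 per Mb. The chromosome 7 window held 24 peaks, that of chromosome 2 held 18 and that of chromosome 12 held 12. Chromosomes 9 (49 peaks), 16 (19 peaks) and 18 (4 peaks) had 1.63, 1.36 and 0.667 peaks per Mb. Over the full window, chromosome 16 was thus as sparse as the arms and chromosome 18 sparser. All these densities divide by full window length. That length includes peak-free stretches of 18000089 bp on chromosome 1, 15.1 Mb on chromosome 9 and 8.10 Mb on chromosome 16. Densities without these stretches were not computed, so the order of the windows holds for full length only.

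A peak was called high-significance when its −log10 q, the authors' false discovery measure on a log scale, reached 5 in each of the replicates. Of the pericentromeric peaks, 158 met this (14.4%; Wilson 95% interval 12.4 to 16.6%), against 3.61% of all shared peaks. In the acrocentric regions 43 peaks met it (3.13%) and in the arms 26 did (0.681%; interval 0.465 to 0.996%). The pericentromeric windows therefore held 69.6% of the 227 high-significance shared peaks of the series. The share depended on the threshold. Lowering the bar to 3 gave 909 shared peaks, of which 335 (36.9%) lay in the windows and 362 in the arms. Raising it to 10 left 39 shared peaks, of which 34 lay in the windows and 1 in the arms.

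The windows with most peaks were not those with the highest share of high-significance peaks. On chromosome 4, 23 of 40 peaks were high-significance (57.5%), and on chromosome 2, 8 of 18 (44.4%). Chromosomes 7, 17, 10, 16 and 1 followed with 9 of 24, 22 of 67, 35 of 121, 5 of 19 and 33 of 209. Of the windows densest over their full length, those of chromosomes 19, 20 and 5 were low, with 6 of 173, 6 of 158 and 10 of 205. Chromosome 9 had 1 high-significance peak among 49, and chromosomes 12 and 18 had 0.

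**Figure D1:**
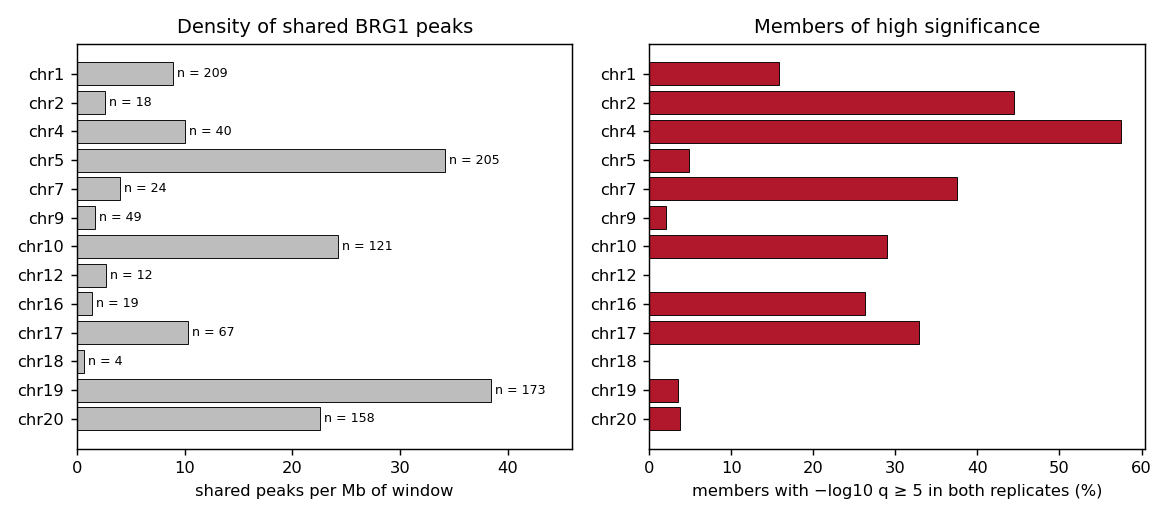
Left, shared BRG1 peaks per Mb of full window length in each of the 13 pericentromeric windows, with the number of peaks beside each bar. Right, the percentage of those peaks whose −log10 q reached 5 in each replicate; chromosomes 19 and 5 lead on the left and chromosomes 4 and 2 on the right.

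High significance went with low fold enrichment. The median fold of the pericentromeric peaks was 2.97 in replicate 1 and 3.15 in replicate 2, below the 3.81 and 3.93 of the arms and the 3.63 and 3.78 of all shared peaks. The median −log10 q was 2.69 in replicate 1 and 2.70 in replicate 2, above the 2.40 and 2.22 of the arms. In rank terms, the median peak stood at percentile 9.92 of its list by fold and 75.4 by −log10 q in replicate 1, and at 15.4 and 71.3 in replicate 2. In the arms the order was reversed in both replicates, at 74.5 by fold and 65.8 by −log10 q in replicate 1 and at 70.8 and 51.9 in replicate 2.

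The same contrast held peak by peak. In both replicates at once, 276 pericentromeric peaks (25.1%) were below the 25th percentile by fold and above the 75th by −log10 q. Of all 6293 shared peaks, 362 (5.75%) were. Only 18 peaks of the arms (0.471%) and 68 of the acrocentric regions (4.94%) combined those ranks. Acrocentric peaks lay between the other groups by median fold as well, at 3.38 and 3.59.

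**Figure D2:**
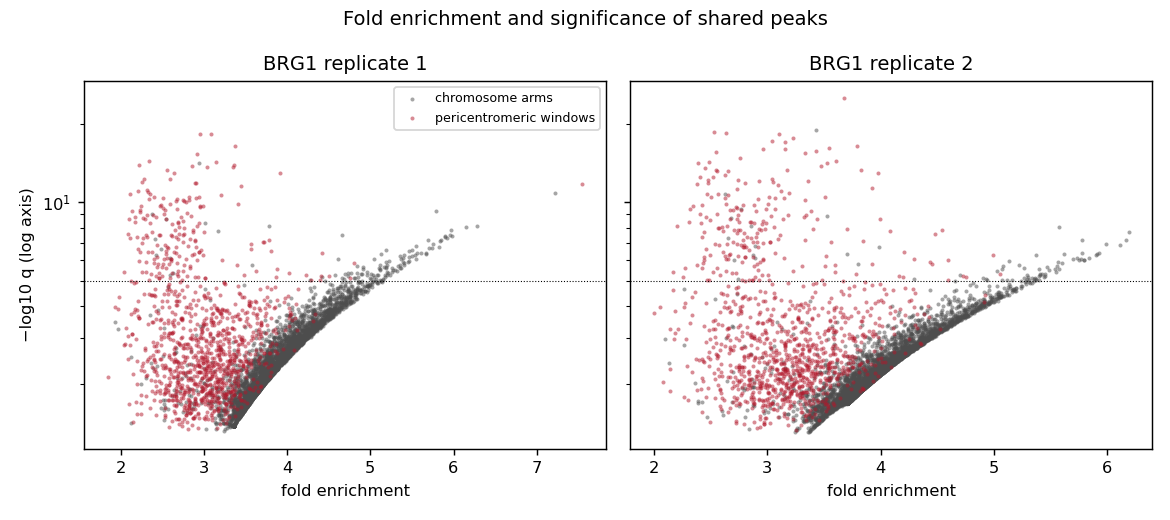
Each point is a shared peak, placed by its fold enrichment (horizontal) and its −log10 q (vertical, log axis) in replicate 1 (left) and replicate 2 (right); the dotted line is a −log10 q of 5. Peaks of the chromosome arms (grey) follow a narrow curve along which both values rise, whereas many pericentromeric peaks (red) sit to its left, with a low fold and a high −log10 q.

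A low fold can be highly significant where many reads are compared with a high background. The background that each peak's fold and p-value imply was therefore computed, taking the fold as pileup over background with 1 added to each and the p-value as a Poisson upper tail. It restates those values and is not a separate measurement. Its median was 6.24 reads for pericentromeric peaks in replicate 1 and 5.44 in replicate 2, against 2.14 and 1.81 in the arms and 3.54 and 3.13 in the acrocentric regions. At the shared list's own values the median was 11.7 in the windows and 4.31 over all other shared peaks, a ratio of 2.72. Pileups of the input library itself were not analysed here, so whether these levels match it was not tested.

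A concentration of high-significance peaks bordered the largest stretch without any peak. On chromosome 1 no peak of any list lay between positions 125184541 and 143184629, a stretch of 18000089 bp. Within 100 kb of its borders lay 37 pericentromeric peaks, 10 before it and 27 after it, and 30 of these were high-significance. That is 30 of the 33 such peaks of the whole window. Their median −log10 q was 8.62 in replicate 1 and 9.74 in replicate 2, at median folds of 2.28 and 2.52.

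The longest peak-free stretch of the other windows was flanked by high-significance peaks in some and not in others. On chromosome 9, 15.1 Mb without a peak (45508802 to 60560194) had 3 peaks within 100 kb, of which 0 were high-significance. On chromosome 16, 8.10 Mb (38280444 to 46382229) had 7, of which 2 were high-significance. In the remaining windows the longest stretch without a peak was between 0.331 and 1.05 Mb. That of chromosome 4 (48699914 to 49091295) had 21 peaks within 100 kb, of which 17 were high-significance, and that of chromosome 10 (38962617 to 39936214) had 5, of which 4 were. The stretch of chromosome 7 had 2 with 1 high-significance, and those of chromosomes 2, 5, 12, 17, 18, 19 and 20 had 0 to 5 peaks nearby, of which 0 were high-significance. Assembly gaps were not marked in the files used here, so which of these stretches are gaps was not tested.

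Neighbouring peaks less than 10 kb apart were joined, and groups of at least 5 were called clusters. The windows held 40 clusters with 363 peaks (33.03% of the pericentromeric peaks, against 22.2% of all shared peaks, 1.47% in the arms and 70.9% in the acrocentric regions). High-significance peaks were concentrated in a few of them: 25 clusters had 0, and the 6 with most held 72 such peaks among their 108. Another 72 high-significance peaks lay outside clusters altogether.

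The leading clusters lay in the windows of chromosomes 1, 10, 4 and 2. Just after the long peak-free stretch of chromosome 1, chr1:143184630-143275834 held 27 peaks, of which 24 were high-significance, with a median −log10 q of 8.66 in replicate 1 and 9.88 in replicate 2. Its nearest protein-coding gene, the histone H3 gene H3-7, was 627 kb away. Just before the stretch, chr1:125166917-125183869 held 9 peaks with 6 high-significance. The largest cluster, chr10:41843500-41915548, held 31 peaks with 13 high-significance, and its nearest gene was ZNF33B, a KRAB-type zinc finger gene. On chromosome 4, chr4:49091296-49156545 held 21 peaks with 17 high-significance, 29.2 kb from CWH43, and included the widest pericentromeric peak (14741 bp, chr4:49096143-49110883). That peak had folds of 2.31 and 2.56 and a −log10 q of 7.39 and 9.06 in replicates 1 and 2.

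Broad peaks covered much of the ground within these clusters. They took up 58.7% of the chromosome 1 cluster after the stretch, 57.8% of the chromosome 10 cluster and 69.2% of that on chromosome 4. A second chromosome 4 cluster, chr4:49632615-49657843, held 10 peaks with 4 high-significance, also nearest to CWH43. On chromosome 17, chr17:21968742-21991962 held 11 peaks with 3 high-significance, nearest to KCNJ18, which encodes an inwardly rectifying potassium channel. By contrast, chr1:124714695-124767184 held 13 peaks but 1 high-significance, and the largest of 8 clusters nearest to LOC124904970 on chromosome 20 held 16 with 2 (chr20:28516221-28588941). The 6 clusters nearest to EMB on chromosome 5 held 44 peaks with 4 high-significance, and the 4 nearest to ZNF254 on chromosome 19 held 27 with 0. Other clusters were nearest to LINC02798 (9 clusters, chromosome 1), ZNG1F and LOC107987004 (chromosome 9) and UQCRFS1 (chromosome 19), which encodes the Rieske subunit of respiratory complex III. In 37 of the 40 clusters the nearest protein-coding gene was more than 100 kb away.

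**Figure D3:**
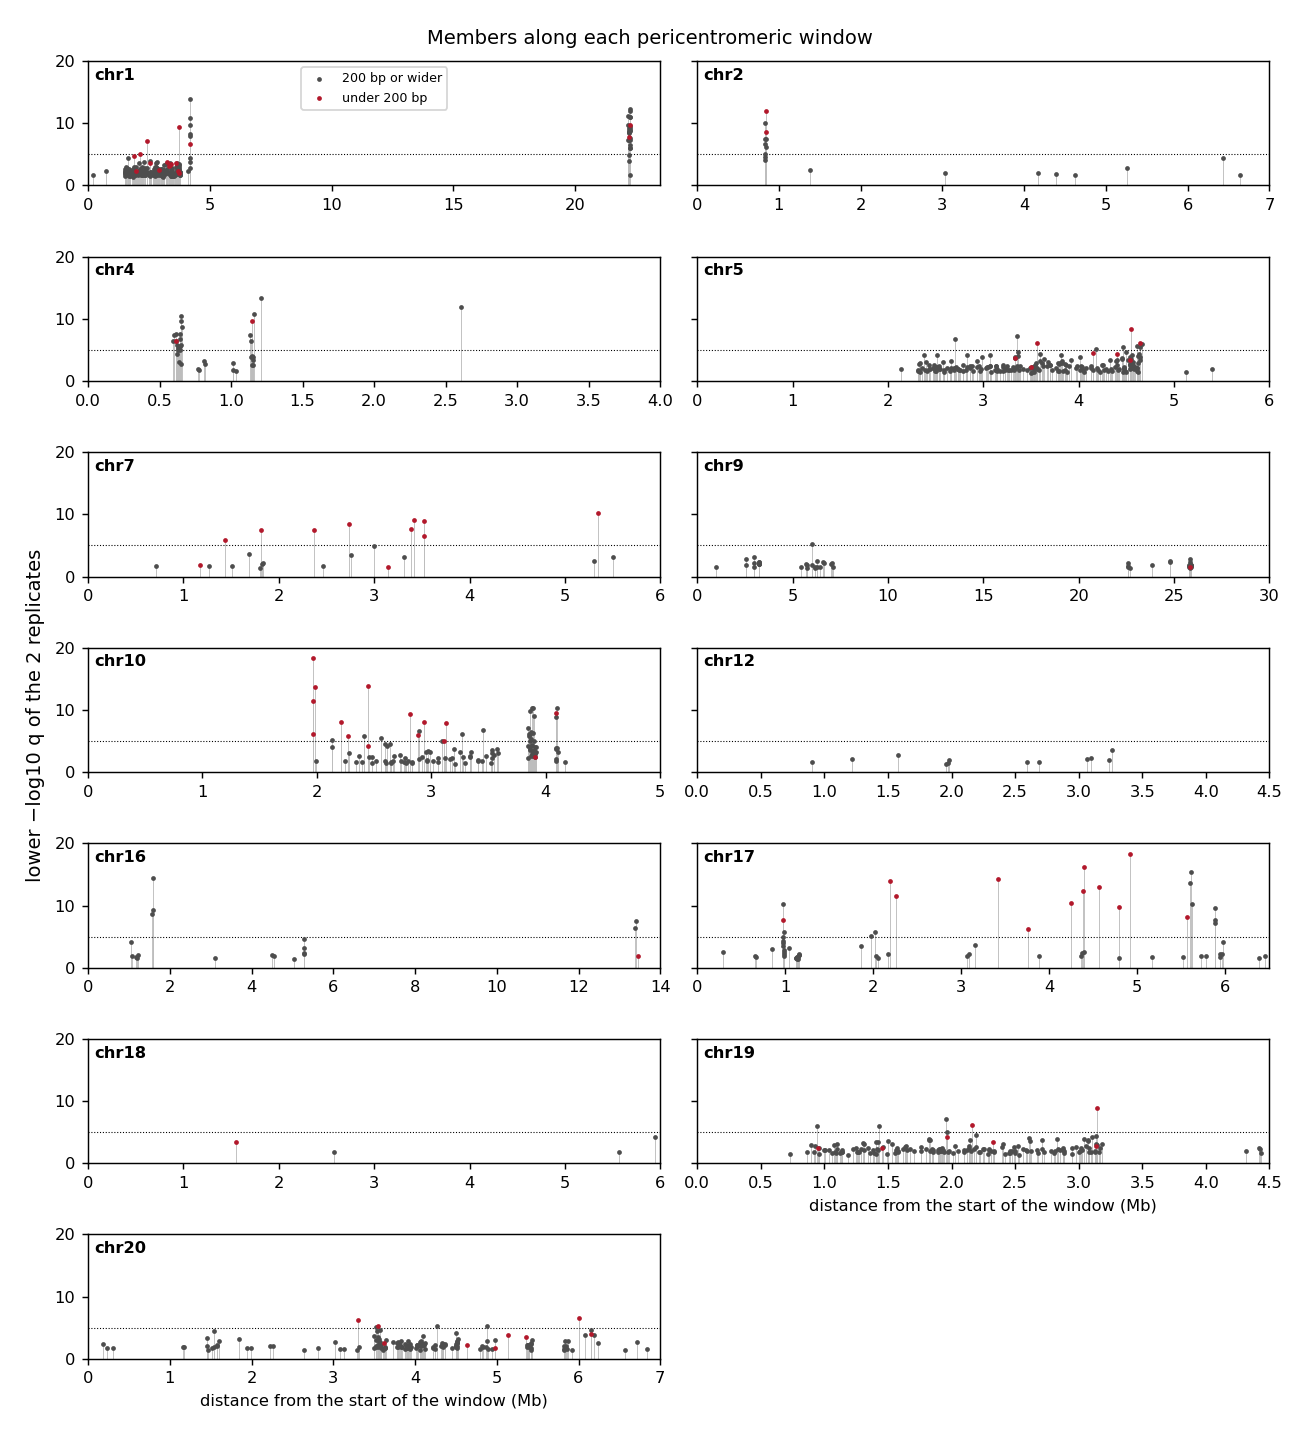
Pericentromeric peaks along each window, by distance from the window's start in Mb (horizontal) and by the lower of the replicates' −log10 q (vertical); the dotted line is 5, and peaks under 200 bp wide are red. On chromosome 1 the tall peaks stand on both sides of the long empty stretch, and on chromosome 7 all peaks above 5 in both replicates are narrow.

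Some of the most significant pericentromeric peaks were the narrowest. The median width was 539 bp in the windows, 1004 bp in the arms and 954 bp in the acrocentric regions. Under 200 bp, a width chosen after the values were seen, were 86 pericentromeric peaks (7.83%), against 2.64% of all shared peaks. In the arms 0.760% and in the acrocentric regions 3.71% were as narrow. In replicates 1 and 2 the narrow pericentromeric peaks had median widths of 110 and 111.5 bp, near the shortest peak of each list (102 and 101 bp). Of these narrow peaks, 52 were high-significance (60.5%; Wilson interval 49.9 to 70.1%), compared with 106 of the 1013 wider ones (10.5%; 8.73 to 12.5%). The share moved with the width chosen, to 81.4% under 150 bp and 38.6% under 250 bp. Their median −log10 q was 6.55 in replicate 1 and 7.25 in replicate 2, against 2.59 in either replicate for the wider peaks. Their median fold differed little from that of the wider peaks (2.84 against 2.98 in replicate 1 and 3.07 against 3.16 in replicate 2). Of the 86 narrow peaks, 66 lay outside any cluster of at least 5 peaks, as did 670 of the 1013 wider ones. Some of these narrow peaks still had a neighbour within 10 kb.

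Chromosome 17 held the most extreme of them. All 12 of its narrow peaks were high-significance, at widths of 108 to 152 bp, with a −log10 q of 7.68 to 18.4 in replicate 1 and 6.16 to 25.2 in replicate 2. The highest, chr17:25920143-25920277, was 135 bp wide and had folds of 3.08 and 3.67, with a −log10 q of 18.4 and 25.2. Its nearest protein-coding gene, WSB1, which encodes a substrate receptor of a ubiquitin ligase, was 1374 kb away. In replicate 1 that fold was only at percentile 12.9 of the list, and in replicate 2 at 46.6. On chromosome 7, 9 of 11 narrow peaks were high-significance, and they were all of the high-significance peaks in that window. They stood in no cluster and ranged over chr7:58434504-62347589. The neighbouring protein-coding genes were ZNF716, another KRAB-type zinc finger gene, and LOC124901649. ZNF716 and LOC124901649 were chosen after their values were seen.

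Chromosome 10 held 15 narrow peaks with 13 high-significance, and chromosome 1 held 17 with 6. The strongest on chromosome 10, chr10:39967556-39967695, was 140 bp wide, with folds of 2.95 and 3.11 and a −log10 q of 18.3 in both replicates. Wide peaks could rank as high: chr1:125178218-125180886 (2669 bp) had folds of 2.21 and 2.53 and a −log10 q of 13.9 and 18.7. On chromosome 16, chr16:34580991-34583878 (2888 bp), nearest to LOC124903767, had folds of 2.33 and 2.64 and a −log10 q of 14.4 and 18.6. By −log10 q, the 10 highest pericentromeric peaks comprised 6 on chromosome 17, 2 on chromosome 10 and 1 each on chromosomes 1 and 16.

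**Figure D4:**
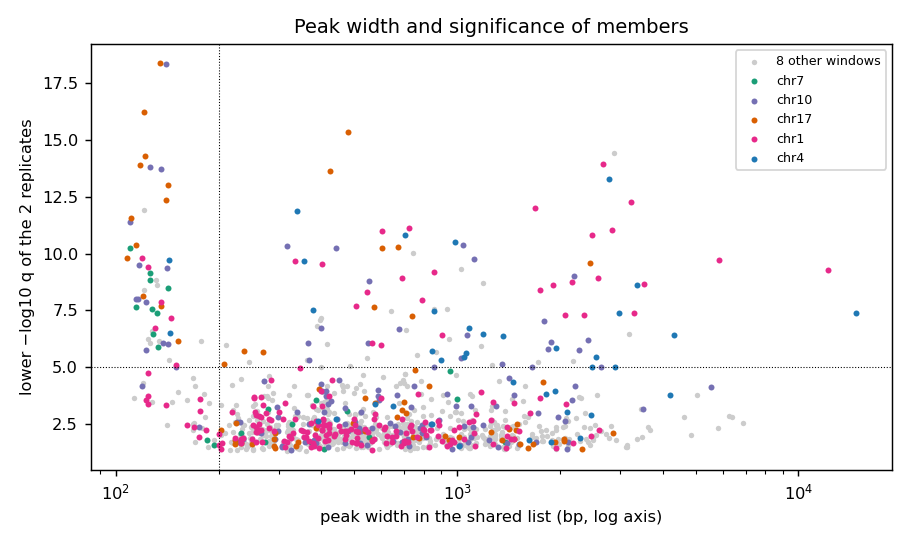
Peak width in the shared list (horizontal, log axis, bp) against the lower −log10 q of the replicates (vertical) for the 1099 pericentromeric peaks, coloured by chromosome for 5 windows. To the left of the dotted line at 200 bp, a column of peaks from chromosomes 17, 10 and 7 rises above a −log10 q of 5.

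High fold enrichment was a different property, and few pericentromeric peaks had it. By mean fold percentile the leading peak was chr2:95433877-95435199, 12.2 kb from FAHD2A, with folds of 7.55 in replicate 1 and 4.92 in replicate 2. Its −log10 q was 11.7 in replicate 1 but 4.40 in replicate 2, so it was not high-significance by the rule above. The next, chr9:44043479-44043842, had folds of 4.80 and 5.05 and a −log10 q of 5.84 and 5.30, and was the single high-significance peak of the chromosome 9 window. Another 7 of the leading 10 had folds of 3.85 to 4.50 in replicate 1 and 4.12 to 4.60 in replicate 2. They were nearest to ZNF254 on chromosome 19, ZNF33B on chromosome 10, LOC124904970 and BCL2L1 on chromosome 20, and EMB on chromosome 5.

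The pericentromeric peaks lay far from genes. Of all 1099, 1041 (94.7%) were more than 100 kb from any protein-coding gene, against 48.4% of all shared peaks, 18.1% of the arms and 95.7% of the acrocentric regions. More than 1 Mb separated 750 of them (68.2%) from the nearest one. The median distance was 1561 kb, compared with 0.785 kb in the arms. For most of these peaks a nearest gene therefore gives only a place.

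Of 123 protein-coding genes in the windows, 7 (5.69%) had a peak in the gene body or within 3 kb of an end, against 6.84% of 19974 protein-coding genes genome-wide. The share is near that background and is no result about these genes. In 3 of them the folds were close to the medians of the arms. BCL2L1, the gene of the anti-apoptotic protein BCL-XL, had a peak at chr20:31712629-31713891 with folds of 4.11 and 4.12 and a −log10 q of 3.23 and 2.67. MAP2K3 had the promoter peak printed above, with a −log10 q of 3.73 and 2.54. EMB, which encodes embigin, a partner of lactate transporters, had a peak 1.36 kb from its body (chr5:50393887-50394836) with folds of 4.08 and 3.85.

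The other 4 genes had folds below the medians of the arms, except SRGAP2C in replicate 2. The forkhead gene FOXS1 had a peak 1.76 kb away with folds of 3.63 and 3.19, and ABHD12, a lysophosphatidylserine lipase, one in its body with 3.37 and 3.40. SRGAP2C, the human-specific partial copy of SRGAP2, had a peak in its body with folds of 3.51 and 4.35. LOC124904970 had one 1.19 kb away with 2.83 and 2.72. None of the 7 peaks was high-significance in these replicates.

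The gene lists gave small counts. Of 9 KRAB-type zinc finger genes from the list that lay in the windows, 0 had a peak, although their clusters flank several of these centromeres. Of 27 genes of duplicated families, 1 had a peak (SRGAP2C). Of 26 single-copy genes in 20q11, 3 had one (ABHD12, BCL2L1 and FOXS1). Of 31 single-copy genes beside the other centromeres, 2 had one (EMB and MAP2K3). Against the 6.84% of all protein-coding genes, these counts are too few to rank the lists.

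Few pericentromeric peaks overlapped a gene record of any kind. The 61 that did make 5.55%, against 67.3% in the arms, 6.98% in the acrocentric regions and 43.3% of all shared peaks. A transcribed pseudogene was overlapped by 29 (2.64%), against 1.33% of all shared peaks, 0.864% in the arms and 1.60% in the acrocentric regions. A long non-coding RNA was overlapped by 15 (1.36%) and a protein-coding gene by 4 (0.364%), against 22.03% and 48.95% in the arms. In the acrocentric regions these shares were 2.33% and 1.02%, and over all shared peaks 14.1% and 29.99%. Of 75 transcribed pseudogenes in the windows, 8 (10.7%) held a shared peak, compared with 2.97% of 1246 in all. UBBP4, a pseudogene of the polyubiquitin gene UBB, contained 10 peaks that formed the cluster chr17:22123614-22158648. Their folds ran from 2.61 to 3.22 in replicate 1 and from 2.87 to 3.25 in replicate 2, and 0 were high-significance. Pseudogenes of FRG1, a gene with many copies near centromeres, contained 17 peaks in 6 of the 7 copies in the windows, with folds of 2.66 to 4.41 and 2.99 to 4.46. None of these 17 was high-significance either.

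The immunoglobulin kappa locus on chromosome 2 held peaks of higher significance. A cluster of 10 peaks at chr2:89826418-89841162 lay within the bounds of that locus's record, and 8 of the 10 were high-significance. Their −log10 q ranged from 4.56 to 11.9 in replicate 1 and from 4.08 to 17.1 in replicate 2, at folds of 2.20 to 2.90 and 2.49 to 3.19. These 8 were all of the high-significance peaks in the chromosome 2 window. LOC124905368 was the nearest protein-coding gene to the cluster, at 518157 bp. UBBP4, the FRG1 pseudogenes and the kappa locus were chosen after their values were seen.

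The replicates ranked the pericentromeric peaks alike. Across the 1099 peaks, Spearman's rho between the replicates was 0.805 for fold, 0.634 for −log10 q and 0.676 for width. Over the 3818 arm peaks it was 0.435, 0.352 and 0.402. In the acrocentric regions it was 0.641, 0.409 and 0.430, and over all shared peaks 0.690, 0.420 and 0.432. These are descriptions across peaks that share library, background and, in clusters, neighbours. Fold was higher in replicate 2 at 839 pericentromeric peaks (76.3%) and at 2424 arm peaks (63.5%). The −log10 q was higher in replicate 2 at 643 pericentromeric peaks (58.5%) but at only 1636 arm peaks (42.8%). Among the 158 high-significance peaks, fold was higher in replicate 2 at 151 and −log10 q at 124. Replicate 2 thus gave the larger values at most of the 158 high-significance peaks although its list was shorter.

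Peaks called in a single replicate were common in the windows. Of the replicate 1 peaks there, 40.7% (1148 of 2821; interval 38.9 to 42.5%) overlapped a replicate 2 peak by 1 bp or more. That is above the 36.6% over all chromosomes and the 32.6% in the arms, and below the 48.5% in the acrocentric regions. Of the replicate 2 peaks, 48.8% (1148 of 2354; 46.8 to 50.8%) overlapped a replicate 1 peak. Here the share was lower than the 63.9% over all chromosomes, the 74.2% in the arms and the 57.0% in the acrocentric regions. Replicate 1 had 1.20 times as many peaks as replicate 2 in the windows and 2.23 times as many in the arms. Whether this bears on the difference in sharing was not tested.

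Sharing rose with significance. Among replicate 1 peaks of the windows it went from 22.9% at a −log10 q under 2 to 78.1% at 5 or more, and in the arms from 18.03% to 71.4%. Among replicate 2 peaks it went from 26.1% to 80.2% in the windows and from 60.2% to 96.4% in the arms. By window, sharing was highest on chromosome 4, with 50 of 86 replicate 1 peaks (58.1%) and 48 of 60 replicate 2 peaks. It was lowest on chromosome 18, where 4 of 59 replicate 1 peaks (6.78%) and 4 of 28 replicate 2 peaks (14.3%) were shared.

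**Figure D5:**
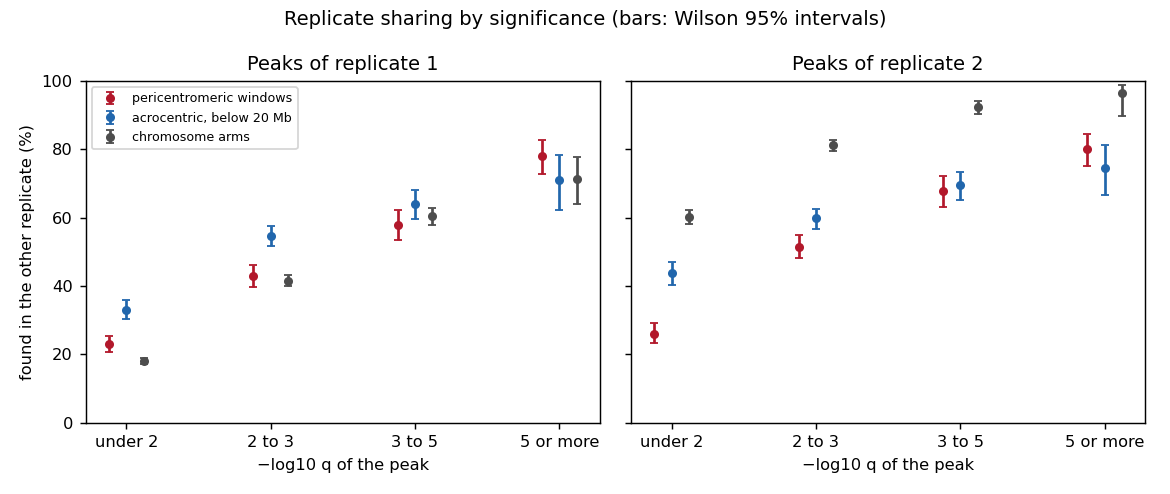
Percentage of the peaks of replicate 1 (left) and replicate 2 (right) that overlapped a peak of the other replicate, by the peak's own −log10 q, with Wilson 95% intervals. The windows (red) rise from 22.9% to 78.1% on the left and from 26.1% to 80.2% on the right, where the arms (dark grey) are higher at each step.

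The borders of the windows were set by position, and peaks on either side of them were compared once as a description. The shared peaks nearest to the 26 borders on the inside had a median fold of 3.23 in replicate 1 and 3.43 in replicate 2. Those nearest on the outside had 3.87 and 3.92. The median distance to the border was 724 kb inside and 963 kb outside, so these values do not describe the border itself. The closest to a border on the inside, chr17:27446571-27447586, lay 52.9 kb inside a border with folds of 3.61 and 3.95. The closest on the outside, chr9:37953098-37954169, lay 46.4 kb beyond a border with folds of 4.13 and 3.85.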

How the data were processed

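BRG1 occupancy was measured by ChIP-seq in 2 libraries of wild-type 12Z cells, with 1 input library for which no values were used. Per the submitters' processing notes, reads were processed on build GRCh38.p12 with Trim Galore, cutadapt, Bowtie2, Picard, SAMtools, bedtools and MACS2. No source used here states their roles, versions, settings or filters. The authors deposited 3 lists of broad peaks, 1 for each replicate and 1 of overlapping peaks, here called shared. For each peak the deposited columns give a fold enrichment, which is a ratio, and the −log10 of the p-value and q-value. These are the authors' own values, averaged over the peak, and serve only to describe, rank or filter peaks within a list. The deposited score column was not used. No source used here states whether the shared list came from pooled reads. No read counts were used, so depth is unknown, and intervals cover the counting of peaks alone.

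Peaks were assigned to windows by midpoint in Python 3.11.15 (numpy 2.4.6, pandas 2.3.3, scipy 1.17.1, matplotlib 3.10.9). A shared peak's value in a replicate is that of the overlapping peak (1 bp or more) with the largest overlap. Percentiles are ranks within a replicate's whole list. Shares carry Wilson 95% intervals that treat peaks as independent, which neighbouring peaks are not. With a single condition no test between groups of samples exists, and comparisons with other regions are descriptions. The inversion that gives the implied background recovered chosen backgrounds from values computed with the same formula for single positions. That checks the calculation alone, and whether the authors' values follow the formula was not tested. It need not hold for values averaged over a broad peak. Gene names and distances come from a RefSeq gene table of GRCh38.p14, whose coordinates are not printed. RefSeq promoter and microRNA tables of that build gave the sequences. No genome sequence was used, so the planned sequence content of the peaks is not reported.

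Named genes are the nearest protein-coding gene of every cluster and of the 10 leading peaks by fold and by −log10 q, protein-coding genes of the windows with a peak within 3 kb, and members of 4 gene lists with a peak. An item selected by this rule is not reported here. Genes outside that rule are said to have been chosen after their values were seen. The windows and gene lists were chosen with earlier results of these data in view. Alternatives covered the −log10 q threshold, window borders, overlap, joining distance, distance to genes and single replicates. The matching by highest −log10 q, the omission of the window with most high-significance peaks, the other thresholds for the share of such peaks in the windows and the other widths for narrow peaks were added after seeing the data.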

Additional observations from a re-analysis of the deposited data

How the results depend on the processing

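Of 47 alternatives, 21 left a value within a set bound and 26 moved it outside. The bound was the Wilson interval for shares and the standard deviation between the replicates for fold percentiles and width. For counts and the implied background it was a fixed ratio to the main value, which measures no spread. The 1099 peaks became 499 when the shared list's own −log10 q had to reach 5, and the peaks of a single replicate numbered 2354 to 2821. Sharing fell to 30.1% of replicate 1 and 36.1% of replicate 2 peaks when 50% of both peaks had to overlap. With −log10 p as the ranking value, the median pericentromeric peak stood at percentile 75.1 in replicate 1 and 71.2 in replicate 2, so the low rank belongs to fold alone. High-significance peaks made up 30.5% of the windows' peaks at a −log10 q of 3, 3.09% at 10, and 17.02 to 19.1% with a single replicate. The windows' share of all high-significance peaks was 36.9% at 3 (335 of 909) and 87.2% at 10. Narrow peaks were high-significance in 81.4% of cases under 150 bp and 38.6% under 250 bp. The median width in a single replicate was 292.5 to 307 bp. Joining within 5 kb gave 20 clusters and within 20 kb 69, and single replicates gave 130 to 141. Within 50 kb, 96.8% of peaks had no protein-coding gene. Genes with a peak numbered 4 with ends of 1 kb, 12 with 10 kb, and 12 to 14 with a single replicate. The cause of these shifts was not tested. Without chromosome 10, the window with most high-significance peaks, these made up 12.6%. Matching by highest −log10 q gave 14.8%. The implied background was 13.5 with nothing added to pileup and background, and its ratio to other shared peaks 2.20. No paired analysis was possible because the BRG1 libraries form a single group. Depth is unknown, and the mapping of repeated sequence, assembly gaps and copy number in these cells were not analysed here. The values cannot tell binding by BRG1 apart from other local excess of reads.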

Other observations

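Chromosomes 18 and 12 held peaks that the replicates seldom shared. In the chromosome 18 window replicate 1 had 59 peaks and replicate 2 had 28, and in the chromosome 12 window they had 78 and 69. Shared peaks there numbered 4 and 12, with a highest −log10 q of 4.66 in replicate 1 and 7.06 in replicate 2 on chromosome 18, and of 5.15 and 5.01 on chromosome 12. The chromosome 7 window was alike in sharing, with 19.5% of 123 replicate 1 peaks and 24.5% of 98 replicate 2 peaks found in the other replicate, but 9 of its 24 shared peaks were high-significance.

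The implied background also differed between windows. Its median in replicate 1 was 20.5 reads on chromosome 4, 15.2 on chromosome 2 and 13.2 on chromosome 16, and in replicate 2 it was 17.9, 14.7 and 11.8. On chromosomes 9 and 12 it was 3.999 and 3.76 in replicate 1 and 3.55 and 3.31 in replicate 2. Narrow peaks had a median of 18.8 in replicate 1 and 16.2 in replicate 2, against 5.98 and 5.18 for wider ones.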
